A study of Mus musculus with 2 samples.

Results

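The 80 genes described here encode the proteins of the cytosolic ribosome, 49 in the large subunit and 31 in the small subunit. They were chosen by gene name alone: every non-control spot whose name is Rpl or Rps with a number (with an optional a, x or l), Rplp0, Rplp1, Rplp2 or Rpsa was taken, with all of its probes. This gave 172 probes in 181 spots, out of 39429 probes in 43020 spots on the array. Of the 80 names, 79 are current RefSeq symbols and Rps3a matched as a synonym. A single probe represents 25 of the genes, and 55 have 2 or more, up to 7 for Rpl17.

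Ribosomal proteins assemble with ribosomal RNA into a small subunit, which reads the codons of an mRNA, and a large subunit, which joins the amino acids. Their mRNAs are among the most abundant of growing cells and begin with a run of pyrimidines through which mTOR signalling controls their translation. Free ribosomal proteins, Rpl5 and Rpl11 above all, can bind Mdm2 and so stabilise p53 when ribosome assembly fails.

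The arrays compare clones of mouse EpiSC, the epiblast stem cells that are derived from the postimplantation embryo and hold primed pluripotency. The series examined the expression profile of EpiSC lines made in the submitters' laboratory. EpiSC clone 1 and EpiSC clone 2 are each 1 clonal line with 1 array, both wildtype, female, of C57BL/6 background and at passage 9, and no treatment distinguishes them. Cells of both were collected with trypsin, and Cy3-labelled cRNA made from 0.2 ug of total RNA was hybridised to a 1-colour Agilent array. With 1 array per clone no test between the clones is possible, so differences are given as values and no p-value is printed.

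Both arrays lay on the same slide and were read in the same scan. The 75th percentile signal was 830 for clone 1 and 736 for clone 2, which is 104 and 103 times the median of the 153 negative control spots. Levels below are log2 signals relative to that percentile, and differences are clone 2 minus clone 1. Detected means that the scanner software marked 50% or more of a probe's spots as well above background. Of the EpiSC markers Pou5f1, Sox2, Nanog, Fgf5, Otx2, Pou3f1, Dnmt3b and Nodal, 8 of 8 were detected on both arrays, with a summed level of 7.07 in clone 1 and 7.22 in clone 2. Of the naive-cell markers Zfp42, Dppa3, Prdm14 and Nr0b1, 0 of 4 were. Markers of other cells were present as well: 5 of 5 fibroblast genes (summed level 6.17 and 6.32), 3 of 3 macrophage genes (1.37 and 1.59) and 1 of 2 erythroid genes (-3.88 and -3.49). Their part in the results below was not tested, and in bulk RNA fewer cells of a type and less RNA per cell cannot be told apart.

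The probes that carry the results are shown here, 5′ to 3′, as the scanner files list them, with positions on mm9. Probes of a gene are numbered along its transcript, and a position longer than the 60 bases of a probe includes bases between its aligned blocks. Rpl13 had the largest difference between the clones, and only in its probe 3 (chr8:125629070-125629129, plus strand), whose capitals mark the letters of a poly(A) signal. Its first probe (chr8:125627816-125628964, plus strand) lies upstream.
Rpl13 probe 3: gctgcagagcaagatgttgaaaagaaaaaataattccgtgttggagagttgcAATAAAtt
Rpl13 probe 1: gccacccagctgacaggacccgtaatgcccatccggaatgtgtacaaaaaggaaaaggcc

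Rpl7a is the gene in which 2 probes passed 1.5-fold. They overlap (chr2:26768730-26768789 and chr2:26768759-26768818, plus strand), and capitals mark the letters in which they differ, A43G and C51A, counted from 1 at the 5′ end of probe 2. The design places these letters on the same mm9 bases, so at each of them at most 1 probe can match the reference. Which one does was not checked.
Rpl7a probe 2: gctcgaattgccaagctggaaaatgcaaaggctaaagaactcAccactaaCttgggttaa
Rpl7a probe 4: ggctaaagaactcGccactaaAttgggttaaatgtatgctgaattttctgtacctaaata

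Rplp0 has an overlapping pair that barely differed between the clones (chr5:116013397-116013456 and chr5:116013404-116013463, plus strand). The pair differs at A15G, T17A, A31G, C42T and C51T, counted from the 5′ end of probe 1 and in capitals below. Here too at most 1 probe can match the reference at each of these letters.
Rplp0 probe 1: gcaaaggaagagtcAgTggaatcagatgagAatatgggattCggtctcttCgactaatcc
Rplp0 probe 2: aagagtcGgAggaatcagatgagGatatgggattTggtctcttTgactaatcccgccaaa

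Rps15a had the only detected probe that was at least 1.5-fold lower in clone 2, probe 2 (chr7:125252644-125252703, minus strand). It is set beside probe 1 of the same gene (chr7:125253453-125253512, minus strand).
Rps15a probe 2: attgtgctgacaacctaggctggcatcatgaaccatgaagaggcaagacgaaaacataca
Rps15a probe 1: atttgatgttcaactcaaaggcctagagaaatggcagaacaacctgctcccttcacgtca

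Rps27l, a paralog of Rps27 that p53 is known to induce, is shown with Rps27 (chr9:66795486-66797176, plus strand, and chr3:90016928-90017135, minus strand). The tissue-restricted paralogs Rpl3l (chr17:24872413-24872681, plus strand) and Rpl10l (chr12:67384868-67384927, minus strand) were not detected.
Rps27l probe 1: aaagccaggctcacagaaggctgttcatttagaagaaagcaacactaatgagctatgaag
Rps27 probe 1: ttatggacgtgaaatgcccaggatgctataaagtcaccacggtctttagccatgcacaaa
Rpl3l probe 1: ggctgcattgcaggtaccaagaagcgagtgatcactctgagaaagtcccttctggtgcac
Rpl10l probe 1: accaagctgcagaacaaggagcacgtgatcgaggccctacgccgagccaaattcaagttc

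Nearly all ribosomal protein genes were detected, and at high signal. Of the 172 probes, 160 were free of outlier flags on both arrays and 155 were detected on both, covering 76 of the 80 genes. Over all probes, 54.7% were detected on both arrays. The median ribosomal protein signal was 73540 in clone 1 and 76946 in clone 2, and 0 of their spots were saturated on either array, with highest signals of 241952 and 262714. A mean level of at least 5 was reached by 129 of the 155 detected probes. Over all probes, 1211 of the 21497 detected reached it, which is 3.08% of the 39272 measured on both arrays.

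The 4 genes without a probe detected on both arrays were Rpl10l, Rpl3l, Rpl5 and Rps21. Rpl10l, a retrogene paralog of Rpl10 known from the testis, was not well above background with either probe (-4.80 and -4.61 for the first, -6.71 and -6.57 for the second, in clone 1 and clone 2). Rpl3l, the striated muscle paralog of Rpl3, was not well above background either, at -6.09 and -5.62. Both paralogs were therefore below detection in both clones, while their ubiquitous counterparts Rpl10 and Rpl3 were detected.

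Rpl39l, a paralog of Rpl39 known from the testis, was detected at a low level, -1.62 in clone 1 and -1.29 in clone 2. Rpl5, which binds 5S ribosomal RNA and Mdm2, has 1 probe, at 5.32 in clone 1 and with its spot flagged as an outlier in clone 2. Rps21, a small-subunit protein, has 1 probe, flagged in clone 1 and at 4.47 in clone 2. For Rpl5 and Rps21 the missing difference thus comes from a flag, not from low signal. With flagged spots kept, the differences were -0.48 for Rpl5 and 0.71 for Rps21.

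Ribosomal protein probes were on the whole slightly higher in clone 2 under the 75th percentile scaling. The median difference was 0.16 over the 155 probes, of which 128 were higher in clone 2, against a median of 0.02 over all 21497 detected probes, of which 53.6% were higher. The direction depends on the scaling: after quantile normalization the median was -0.066 with 61 of 155 higher, and in the authors' deposited table it was -0.069 with 61 of 155 higher. After normexp background correction it was 0.032, with the median over all probes at 0.12. Large-subunit probes had a median of 0.18 and small-subunit probes of 0.12.

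Other bright probes were also shifted towards clone 2 under this scaling. Among probes with a mean level of at least 5, the median difference was 0.17 for the 129 ribosomal protein probes and 0.15 for 1082 other probes, and 83.7% and 80.2% of them were higher in clone 2. In the deposited table the medians of the same sets were -0.085 and -0.052. In columns 69 to 85 the medians were 0.53 for ribosomal protein probes and 0.32 for the other bright probes. The difference between the sets was not tested.

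**Figure D1:**
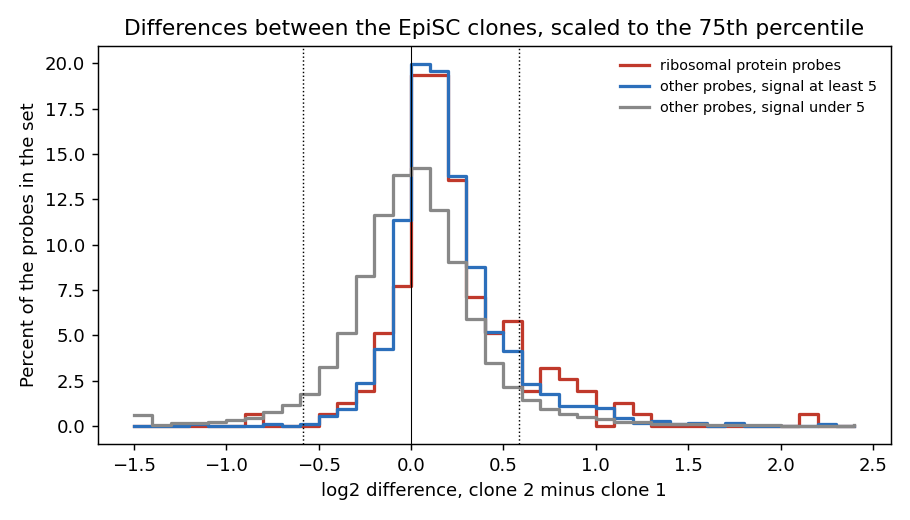
Share of detected probes (percent of each set, in bins of 0.1) by log2 difference between the clones, for ribosomal protein probes, other probes with a mean level of at least 5 and other probes under 5; dotted lines mark 1.5-fold and the end bins hold all values beyond the axis. The ribosomal protein probes (median 0.16) and the other bright probes (median 0.15) lie to the right of the dimmer probes (median 0.01).

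At least 1.5-fold higher in clone 2 were 19 ribosomal protein probes of 18 genes, 12.3% of the 155, against a background of 5.64% of all detected probes. At least 1.5-fold lower was 1 probe, against a background of 3.94%. In either direction these are 20 probes, against 9.58%. At 2-fold, 4 probes were higher (background 1.6%) and 0 lower (background 1.19%), against 2.79% of all detected probes in either direction. Among probes with a mean level of at least 5, 15 of the 129 ribosomal protein probes (11.6%) were at least 1.5-fold higher, against 9.5% of all such probes, and 2 were at least 2-fold higher, against 2.39%. The probe nearest above the 1.5-fold threshold was that of Rps25 at 0.62, and the nearest below was that of Rpl41 at 0.58. By subunit, 13 of 100 large-subunit probes were at least 1.5-fold higher, and 6 of 55 small-subunit probes.

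Array position moved with these calls. The array has 85 columns of spots, and 18 of the 19 probes at least 1.5-fold higher lay in columns 52 to 85, which hold 66 of the measured ribosomal protein probes, while 1 lay in columns 1 to 51, which hold 88. The median difference was 0.35 in columns 52 to 85 and 0.09 in columns 1 to 51. From left to right, in blocks of 17 columns, the medians were 0.08, 0.05, 0.18, 0.27 and 0.53. Over all detected probes the share at least 1.5-fold higher was 8.16% in columns 52 to 85 and 4.06% in columns 1 to 51. For all probes with a mean level of at least 5 in columns 52 to 85, ribosomal protein probes included, it was 20.2%. Among these bright probes it was 14 of 57 ribosomal protein probes (24.6%) and 84 of 428 others (19.6%). The split into columns was chosen after the values were seen, and the part of array position in each difference below was not tested.

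**Figure D2:**
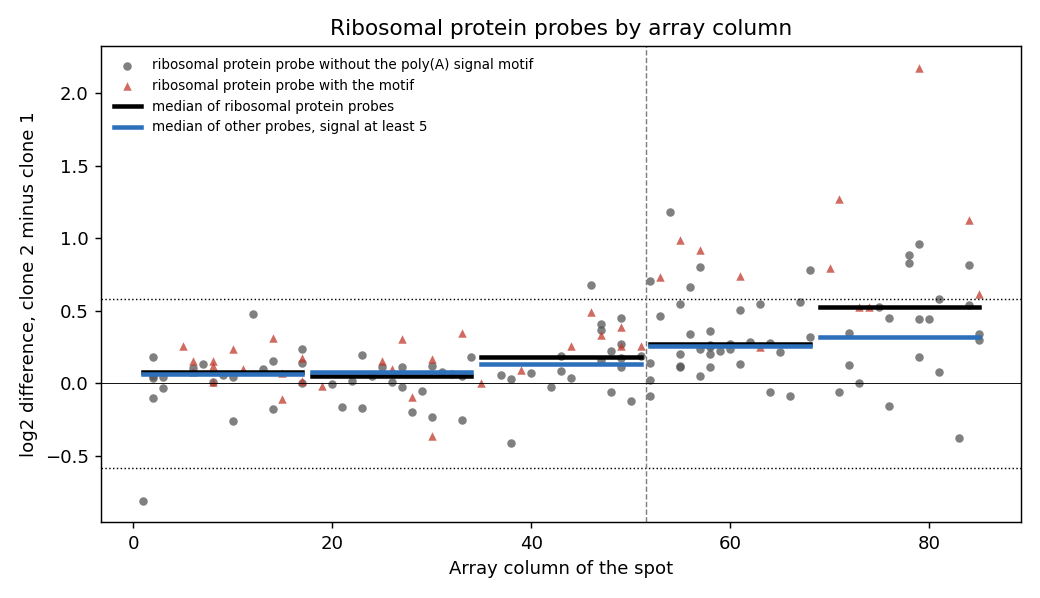
Log2 difference of each detected ribosomal protein probe with 1 spot (triangles hold the poly(A) signal motif, circles do not) against the array column of its spot, with the median per 17 columns for these probes and for other probes with a mean level of at least 5. Dotted lines mark 1.5-fold, the dashed line parts columns 51 and 52, and the medians rise from 0.08 to 0.53 for ribosomal protein probes and from 0.07 to 0.32 for the other bright probes.

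Probes of the same gene parted by column as well. In 29 genes with detected probes in both parts of the array, the mean difference was larger in columns 52 to 85 for 25 genes. The median gap between the parts was 0.36. The same count over other genes is not given here. Other probes with a mean level of at least 5 had median differences of 0.09 in columns 1 to 51 and 0.28 in columns 52 to 85. Rpl7, a large-subunit protein, read 1.18 in its probe in column 54, while its 3 probes in columns 28, 39 and 43 read -0.10, 0.10 and 0.19. Rpl15, another large-subunit protein, read 0.80 in column 57 and -0.20 in column 28. Rpl22, which as a free protein also binds cellular RNAs, was the widest exception, with 0.0022 in column 73 and 0.45 in column 49.

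**Figure D3:**
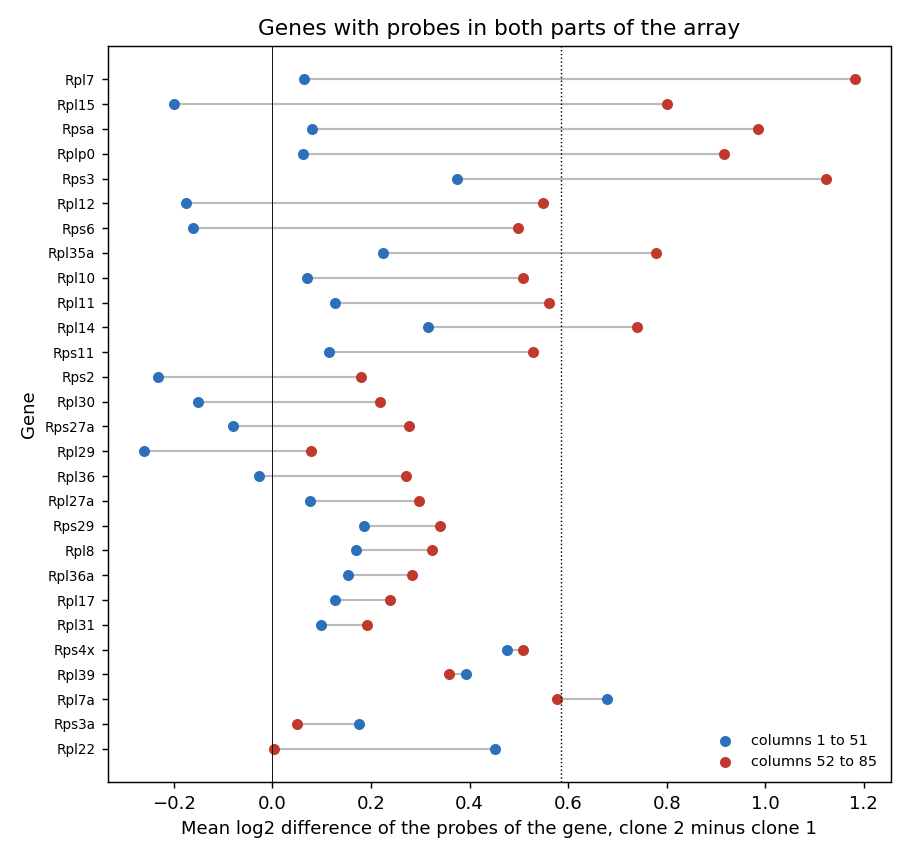
Mean log2 difference of the probes of a gene in columns 1 to 51 (blue) and in columns 52 to 85 (red), for 28 of the 29 genes with detected probes in both parts, ordered by the gap. The red point lies to the right in 24 of the genes drawn, and the exceptions are Rpl39, Rpl7a, Rps3a and Rpl22. A further Rps3a probe in column 58, flagged in clone 1 and left out here, differed by 0.93 with the flagged spot kept.

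The letters AATAAA, the canonical poly(A) signal, also moved with the differences. They stand in 46 ribosomal protein probes, 41 of them detected on both arrays, with a median difference of 0.26 against 0.13 for the 114 without. In columns 52 to 85, 9 of 12 probes with the motif were at least 1.5-fold higher and 9 of 54 without it. In columns 1 to 51, 0 of 29 with the motif were, and 1 of 59 without it. Other probes with a mean level of at least 5 in columns 52 to 85 showed the same order, 31 of 101 with the motif and 53 of 327 without. Such probes in columns 1 to 51 showed it too, 8 of 139 with the motif and 8 of 514 without. This split too was chosen after the values were seen.

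In the large subunit, Rpl13 had the highest difference. Its probe 3 read 3.29 in clone 1 and 5.46 in clone 2, a difference of 2.18 or 4.52-fold, in column 79. Its probe 1 read 6.79 and 7.13, and its probe 2, which the array design places on chromosome 4 while the gene lies on 8, read 6.65 and 6.89. Probes 1 and 2, in columns 56 and 57, thus differed by only 0.34 and 0.24.

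Rpl4 has a single probe (chr9:64026265-64026324), which read 4.20 in clone 1 and 5.47 in clone 2, a difference of 1.27. Rpl7 probe 2 (chr1:16091438-16091864) read 5.94 and 7.12. Both lie in the right part of the array, in columns 71 and 54. No second probe of Rpl4 was there to compare.

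Rplp0, the scaffold of the stalk that recruits elongation factors, read 5.76 and 6.67 in its probe 3 (column 57), a difference of 0.92. Its overlapping probes 1 and 2 read 7.06 and 7.17, and 7.81 and 7.82, in columns 6 and 8. The other stalk proteins have 1 probe each, Rplp1 at 7.89 and 7.99 and Rplp2 at 7.98 and 8.24. All detected stalk probes outside column 57 therefore lay within 0.26 between the clones.

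Rpl7a was higher with both overlapping probes, 5.04 and 5.75 for probe 2 and 5.47 and 6.15 for probe 4, differences of 0.71 and 0.68. Probe 4 lies in column 46 and is the only probe in columns 1 to 51 past 1.5-fold upward. Probe 1 read 4.93 and 5.38, a difference of 0.45, and probe 3 was flagged on both arrays. The 3 measured probes of Rpl7a thus all lay on the side of clone 2, with differences from 0.45 to 0.71. After quantile normalization probes 2 and 4 fell below 1.5-fold.

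In 7 further large-subunit genes a probe was at least 1.5-fold higher: Rpl6 (0.83), Rpl15 (0.80), Rpl32 (0.79), Rpl35a (0.78), Rpl14 (0.74), Rpl10 (0.73) and Rpl23 (0.66). The other probes of Rpl6, in columns 58, 55 and 83, read 0.25, 0.12 and -0.38. Rpl10, which joins the large subunit late in its assembly, read 0.73 in its probe in column 53 and 0.07 in the overlapping probe in column 15. Probe 1 of Rpl10, in column 62, read 0.29. Rpl23, which can bind Mdm2, read 6.88 and 7.54 in probe 2. Its probe 3 was printed 10 times and read 2.21 (SD 0.10, n = 10 spots) in clone 1 and 2.22 (SD 0.07, n = 10 spots) in clone 2. The repeated probe of Rpl23 thus did not move with probe 2 of the same gene.

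Among probes free of outlier flags, the lowest large-subunit difference was that of Rpl24, -0.41, from 5.90 to 5.48 in probe 1. Probe 2 of Rpl24 read 7.36 and 7.46. The probe of Rpl5, flagged in clone 2, differed by -0.48 with the flagged spot kept. Rpl11, which binds Mdm2 together with Rpl5, read 0.56, 0.17 and 0.08 in probes that lie in columns 67, 17 and 6. Rpl38, known in mouse for its role in translating Hox mRNAs, read 7.18 and 7.65 in its measured probe. Its other probe was flagged in clone 2 and differed by -0.36 with the flagged spot kept. Rpl13a, known in human cells for leaving the ribosome to silence inflammatory mRNAs, read -0.12 and 0.18 as differences. None of the probes of Rpl24, Rpl11, Rpl38 and Rpl13a reached 1.5-fold under the 75th percentile scaling.

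Rpl3, at the peptidyl transferase centre, read 7.32 and 7.60. Rpl39, a small protein of the exit tunnel, differed by 0.26, 0.45 and 0.39 in its 3 probes. Rpl36a, whose gene lies on X, differed by 0.36, 0.15 and 0.21. The probes of these genes all had the higher reading in clone 2 and stayed under 1.5-fold.

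In the small subunit, Rps3, which lines the mRNA entry channel and also acts in DNA repair, had the highest difference among probes free of outlier flags. Rps24 probe 1, flagged in clone 1, differed by 1.22 with the flagged spot kept. Rps3 probe 1 (chr7:106627408-106627786, column 84) read 5.68 and 6.81, a difference of 1.12. Its probe 2 read 6.15 and 6.64, and its probe 3 read 1.81 and 2.07. All probes of Rps3 read higher in clone 2, by 0.26 to 1.12.

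Rpsa, the laminin-binding ribosomal protein, read 6.57 and 7.56 in probe 3 in column 55, a difference of 0.99. Its other 3 probes, in columns 38, 27 and 17, differed by 0.03, -0.02 and 0.24. Rps6, the substrate of the S6 kinases downstream of mTOR, read 6.56 and 7.44 in probe 2 in column 78, a difference of 0.88. Its probes 1 and 3, in columns 21 and 55, differed by -0.16 and 0.11. In Rpsa and in Rps6, 1 probe of several passed 1.5-fold.

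Rps27l read 5.96 and 6.92, a difference of 0.96, with a single probe in column 79. Its paralog Rps27 differed by 0.06 and 0.26 in probes in columns 37 and 44. The paralogs were measured only in different parts of the array, so gene and position cannot be told apart for this pair. Rps25, a small-subunit protein used by some viral internal ribosome entry sites, read -2.03 and -1.41 in column 85. Its other probe, in column 68, was flagged in clone 1 and differed by 1.05 with the flagged spot kept.

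Rps15a was the only gene with a probe at least 1.5-fold lower in clone 2. Probe 2, in column 1, read 5.60 in clone 1 and 4.80 in clone 2, a difference of -0.81. Probe 1, in column 9, read 6.06 and 6.12. Probe 3, which starts at base 4642 of the transcript, was below detection in both clones.

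Rps19, the small-subunit protein most often mutated in Diamond-Blackfan anaemia, read 6.31 and 6.36. Rps27a, made as a fusion with ubiquitin, differed by -0.17, 0.28 and 0.01. Rps4x, on X in mouse, differed by 0.51 in a probe placed on chromosome 3 and by 0.48 in a probe on X. Rps4x thus agreed between a probe in column 61 and a probe in column 12, both under 1.5-fold.

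Differences past 1.5-fold were rarely shared by the probes of a ribosomal protein gene. Of the 18 genes with a probe at least 1.5-fold higher, 13 have 2 or more measured probes. In 12 of these, 1 probe passed, in Rpl7a 2 passed, and in 0 did all pass. Rps25 is not among these 13, and with its flagged spot kept its 2 probes differed by 1.05 and 0.62, past 1.5-fold. The flagged probes of the others among the 18 genes did not pass. The 24 other probes of the 18 genes had a median difference of 0.12, between -0.38 and 0.49, and 8 of them lie in columns 52 to 85. In 15 of the 48 genes with 2 or more measured probes the differences of probes lay at least 1.5-fold apart: Rpl6, Rpl7, Rpl10, Rpl12, Rpl13, Rpl15, Rpl23, Rpl27, Rpl36, Rplp0, Rps3, Rps6, Rps15a, Rps24 and Rpsa. In 24 of the 48 genes every probe differed in the same direction. Shares over all names on the array are not given here for these counts. Whether they differ from those of other genes was not tested.

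The spread of spots is known from probes that the array carries 10 times. Over 264 such probes detected on both arrays, the median SD between spots was 0.07 in clone 1 and 0.08 in clone 2, and that of the spot differences was 0.09. Their difference in columns 52 to 85 exceeded that in columns 1 to 51 by a median of -0.0043, with 123 higher on the right of the 261 that have a spot difference in both parts. Only 1 of these probes reached a mean level of 5, so they describe dimmer probes than most ribosomal protein probes. These SDs are technical and hold no variation between cultures.

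The processing bore on which genes passed 1.5-fold. After quantile normalization, and likewise in the table deposited by the authors, 14 of 155 probes passed, 11 higher and 3 lower. Over all detected probes, 5.38% were at least 1.5-fold higher and 3.87% lower after quantile normalization. In the deposited table these shares were 5.54% and 3.93%. Of the 14 probes, 12 were among the 20 probes of the 75th percentile scaling. Those lost were the probes of Rpl6, Rpl10, Rpl14, Rpl15, Rpl23, Rpl32 and Rpl7a, and those added were lower probes of Rpl24 (-0.59 and -0.60) and Rpl36 (-0.66 and -0.67). The probes of Rpl4, Rpl7, Rpl13, Rpl35a, Rplp0, Rps3, Rps6, Rps15a, Rps25, Rps27l and Rpsa were among those that passed under every processing that gave a value for them. The columns parted under each processing too, with medians of -0.14 and 0.16 after quantile normalization and -0.16 and 0.16 in the deposited table.

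**Figure D4:**
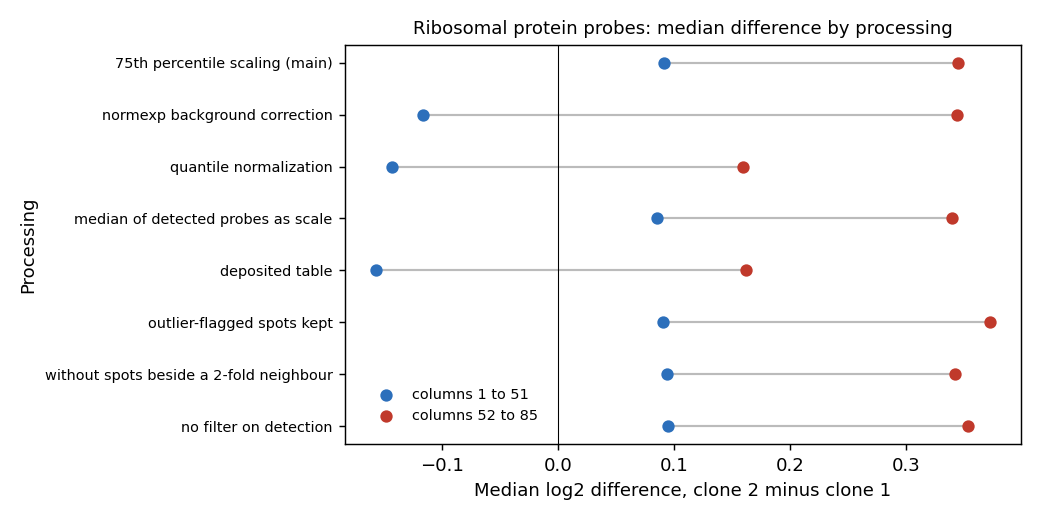
Median log2 difference of ribosomal protein probes in columns 1 to 51 (blue) and 52 to 85 (red) under each processing. The left median lies below 0 after normexp (-0.12), after quantile normalization (-0.14) and in the deposited table (-0.16), and the right median lies above 0 in each, from 0.16 to 0.37.

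Probes of a gene also differed in level. Signals of different probes are not on a common scale of RNA abundance, so these gaps describe the probes. In the 48 genes with 2 or more measured probes, 31 had probes at least 2-fold apart on an array (64.6%, against a background of 74.7% of 3387 names) and 20 at least 4-fold apart (41.7%, against 52.9%). The median gap between the brightest and dimmest probe was 1.47 in clone 1 and 1.51 in clone 2. In 39 of the 48 genes the gap changed by under 1.5-fold between the clones, and the largest change, 1.83, was that of Rpl13. The share over all names is not given here for such changes.

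The widest gap was in Rps27a, from -3.23 to 7.98 in clone 1 and from -3.40 to 8.26 in clone 2, with the dimmest probe starting at base 42 and the brightest at base 689. Rpl6 followed, from -3.10 at base 1154 to 7.43 at base 819 in clone 1. Rpsa spanned 8.76 and 8.68, with its dimmest probe at base 1340 on both arrays and its brightest at base 876 in clone 1 and at base 990 in clone 2. In these 3 genes the same probe was dimmest on both arrays.

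Among the 20 genes at least 4-fold apart, the dimmest probe started farther along the transcript than the brightest in 15 and nearer its start in 5. Over all measured ribosomal protein probes, the 46 that start after base 700 had median levels of 5.55 and 6.13, and 20 of them were under 5. The 114 that start up to base 700 had medians of 6.68 and 6.98, and 11 were under 5. Rpl39 (-0.24 against 6.86), Rpl14 (2.51 against 8.14), Rpl31 (1.65 against 6.93), Rpl22 (3.78 against 7.48) and Rpl27a (4.11 against 7.43), all in clone 2, had the dimmest probe farther along. Rpl30 (1.62 against 6.59) had it nearer the start.

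Rpl21 is represented only by dim probes, which start at bases 824 and 1514 and read -1.03 and -1.59 in clone 1 and -0.90 and -1.75 in clone 2. Rpl17, with 7 probes, fell from 6.94 at base 349 to 0.72 at base 715 in clone 1, and from 7.18 to 0.79 in clone 2. On both arrays the dimmest probe of Rpl17 was the one that starts at base 715.

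**Figure D5:**
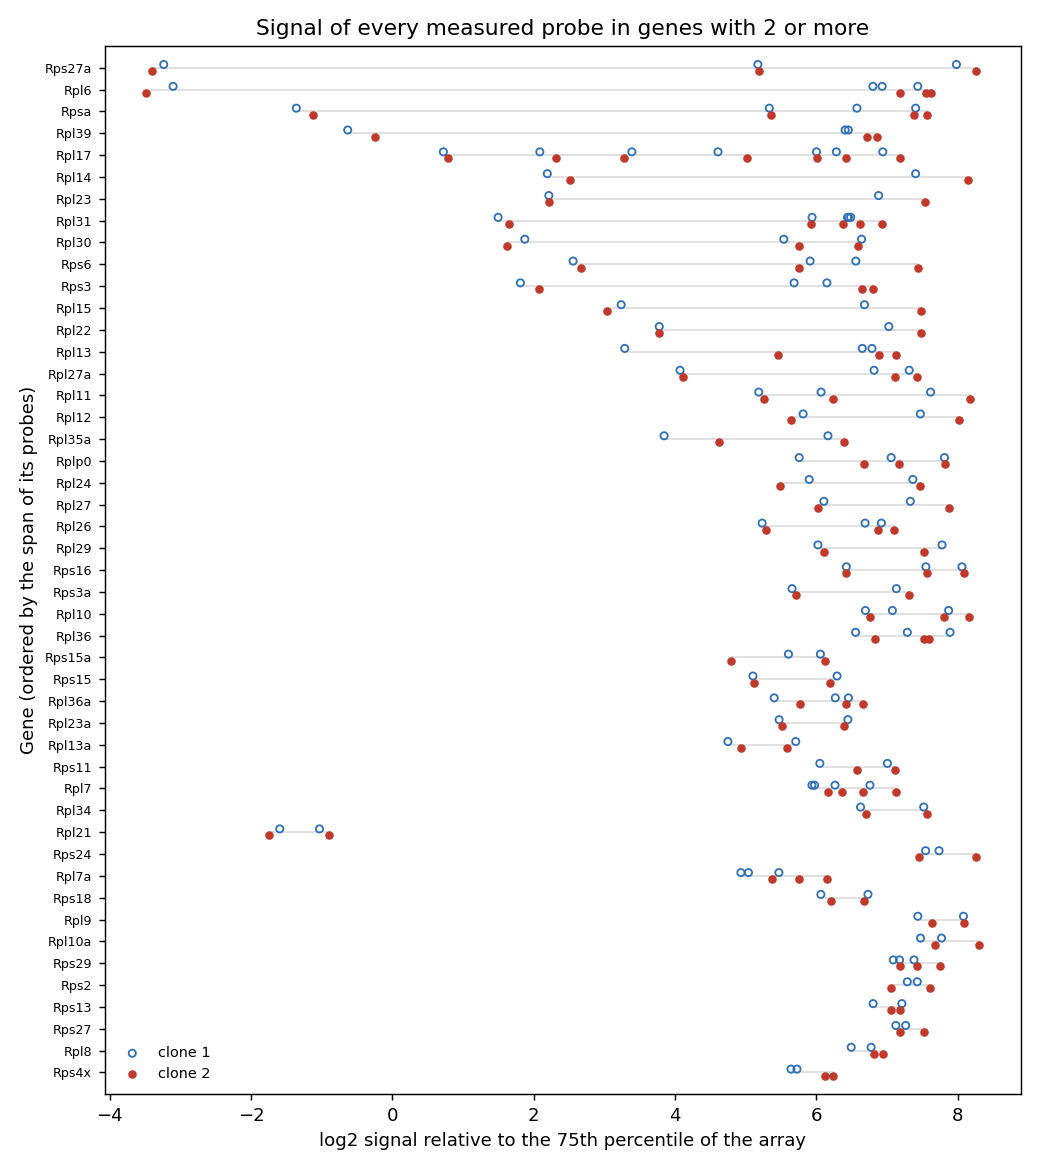
Log2 level, scaled to the 75th percentile, of every detected probe in 47 of the 48 genes with 2 or more, in clone 1 (open blue) and clone 2 (filled red), ordered by the span of the probes. Rps27a, Rpl6 and Rpsa span the most, and open and filled points of a probe lie close together compared with the gaps between probes.

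Probes that overlap within a gene gave a closer view. At least 30 shared bases at 80% identity or more were found in 16 pairs of 12 genes, and every pair held at least 1 mismatch. In the 12 pairs measured on both arrays the median gap in level was 0.58 in clone 1 and 0.81 in clone 2, and 5 pairs lay at least 2-fold apart on an array. Rplp0 probe 2 read 0.75 above probe 1 in clone 1 and 0.66 in clone 2. For 9 probes of 6 genes (Rpl12, Rpl13, Rpl31, Rpl36, Rps4x and Rps29) the array design places the sequence on another chromosome than the gene. Of these, 0 of 9 passed 1.5-fold. Near-identical copies may share such probes, so the values of these genes are uncertain. The same caution holds for overlapping pairs that differ at the same genomic bases, such as those of Rpl7a and Rplp0.

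Genes beside the ribosomal protein set were read in the same way. Of 7 measured probes of further ribosomal proteins, 3 were at least 1.5-fold higher, against 5.64% of all detected probes and 9.5% of those with a mean level of at least 5, among them Gnb2l1 (Rack1, the kinase scaffold on the small subunit) at 0.79 in column 81 and Fau (which encodes Rps30) at 0.73 in column 40. A second Fau probe in column 33 differed by 0.30. The median over these 7 probes was 0.56.

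Other mRNAs with a terminal oligopyrimidine tract, such as Eef1a1 and Eef2 (elongation factors), Tpt1 and Npm1, had 0 of 26 probes past 1.5-fold and a median of 0.10. Over all detected probes 9.58% were past 1.5-fold in either direction, 5.64% higher and 3.94% lower, and the counts of each list here stand beside those shares. Ribosome biogenesis genes had 0 of 47 higher and 1 lower, Ncl (nucleolin) at -0.73 in column 54, with a median of -0.02. Regulators of ribosome supply, among them Myc (-0.13), Mycn (0.43), Mtor (-0.07) and Trp53 (-0.32), had 0 of 16 past 1.5-fold. Mitochondrial ribosomal proteins, which build the separate ribosome of mitochondria, had 0 of 94 past 1.5-fold and a median of 0.09. Their levels were lower, with medians of 2.38 and 2.49, so the lists were not matched in signal or array position.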

How the data were processed

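Values were read from 1-colour Agilent scanner files (design 026655, Feature Extraction 11.0.1.1, protocol GE1_1100_Jul11, probe positions on mm9, per the file headers). The authors deposited a processed signal intensity for each spot, already corrected for background and not normalized between arrays, per the file headers. The deposited table of normalized intensity was used as an alternative, with a method not given in the sources used here. Its column medians are 65.8 and 65.8, and its values correlated across probes with the processed signals at 0.999 and 1.00, which leaves its scale, its centring and its differences between the clones unsettled.

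Spots with an outlier flag were left out. Each probe's log2 intensity is the mean of its spots minus the 75th percentile over probes of that array. Quantile normalization and normexp (offset 50) were run in limma 3.58.1 under R 4.3.3, all else in Python 3.11.15 with pandas 2.3.3. Calls are folds of 1.5 and 2 with no test, and their code was tested on simulated data.

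Named genes are those with a probe past 1.5-fold, probe levels at least 4-fold apart or probe differences at least 1.5-fold apart, undetected or saturated genes, the extremes of each subunit, and a list of genes with known special roles, of which Rps4l is not among the matched names. The members and lists were chosen with earlier results of these data known. Chromosomes of genes come from RefSeq (GRCm38.p6), and exon annotation of mm9 was not used here. A few genes that these rules name are not reported here.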

Additional observations from a re-analysis of the deposited data

How the results depend on the processing

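The median difference of ribosomal protein probes, 0.16, turned to -0.066 with quantile normalization and to -0.069 in the deposited table, and was 0.032 with normexp. The splits by column, motif and signal were chosen after seeing the data: the median was 0.35 in columns 52 to 85. The count past 1.5-fold, 20 of 155 probes, was 2 of 88 in columns 1 to 51 and 11 of 114 without the motif. By gene means it was 8 of 76 genes, and by the brightest probe of each gene 10 of 76. It kept 14 to 25 otherwise, among 66 to 167 probes. Across the processings, 4.95% to 9.46% of all probes were at least 1.5-fold higher and 1.75% to 7.15% lower. The count past 2-fold, 4 of 155 probes, was 2 of 155 with quantile normalization and 2 of 155 in the deposited table. It was 2 of 129 at signals of at least 5, 0 of 88 in columns 1 to 51 and 1 of 114 without the motif. By gene means and by brightest probes it was 1 of 76 genes. The count of genes with probes 2-fold apart, 31 of 48, was 34 of 48 or 33 of 50 under the alternatives tried. The causes were not tested. No paired analysis was possible because the labels give no pairing between the clones. With 1 array per clone no array could be left out, and the number of arrays limits precision.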
